A study of Mus musculus with 4 samples.

Results

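The 34 genes described here mark the adventitial fibroblast, the connective tissue cell of the outermost layer of the artery. They were chosen by name as identity genes of that cell, and all 34 were found among the 39179 genes of the deposited table. Primary mouse aortic smooth muscle cells were the source of the sequenced RNA, taken 18 days after tamoxifen injection. There were 2 libraries labelled Yap/Taz-KO, from Sm-Yap/Taz-KO mice, and 2 labelled WT, and both groups are described as taken after tamoxifen. YAP and TAZ are transcriptional co-activators held in check by the Hippo kinases. How the adventitia was removed from the aorta, and whether the cells were cultured, is not given in the sources used here. The labels do not give the Cre driver, whether the WT mice carried any modified allele, or the age or sex of the mice, and do not call the 2 libraries of a genotype separate mice. The spread behind each p-value may therefore be technical.

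The adventitia surrounds the smooth muscle of the media and holds fibroblasts, small vessels, nerves and immune cells. Its fibroblasts include a population marked by Pi16, Dpp4, Cd34 and Ly6a (Sca-1), regarded as a reservoir of connective tissue progenitors. They secrete collagens and the proteins that process and bind them, among them dermatopontin (Dpt) and the procollagen C-proteinase enhancers. Many of these genes are not exclusive to fibroblasts: Cd34, Ly6a and Ly6c1 are also made by endothelial cells, Thy1 and Dpp4 by T cells, Pdpn by lymphatic endothelium and mesothelium, and Gsn and Fstl1 by smooth muscle.

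Values are normalized read counts, which do not correct for gene length. They summed to between 13279332 and 14519178 per library, and the steps between the rounded values gave estimated depths, in megareads on genes, of 12.3 and 11.8 for the knockout libraries and 15.6 and 16.8 for the wild-type libraries. Yap1 was at 947 and 962 in the knockout, with 1966 and 1877 in the wild type, and Wwtr1, which encodes TAZ, at 2848 and 2466 versus 3423 and 4016. The smooth muscle identity of the libraries was visible in both groups, with Acta2 at 41201 and 33544 versus 157904 and 150117, and Myh11 at 64964 and 49813 versus 168117 and 164384.

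The 2 wild-type libraries differed from each other in the adventitial genes. Wild-type replicate 1 held the lowest value of the 4 libraries for 27 of the 34 genes (the share over all tested genes was not computed). Replicate 2 was above it for 32 of the 34, and for 7902 of the 15058 tested genes. It was at least 1.5-fold above for 24, where 13.9% of all tested genes were. Replicate 1 was above it for Smoc1 and Ebf1, by less than 1.5-fold, a margin that 5.51% of all tested genes reached. Marker genes of other cells outside the media moved the same way: replicate 2 was the higher for 23 of 24 general fibroblast, 16 of 16 macrophage and 12 of 12 endothelial markers, but for 1 of 14 contractile smooth muscle genes. The knockout libraries were closer together in the adventitial genes. Replicate 1 was at least 1.5-fold above replicate 2 for 5 of the 34 and the reverse held for 0 (9.57% and 12.5% of all tested genes). Over all tested genes they were not closer. The standard deviation of the log2 ratio was 0.655 between the knockout libraries and 0.561 between the wild-type libraries. The genes that rose, and the main genes that did not pass, are therefore also given without wild-type replicate 1.

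Adventitial genes were higher in the knockout as a group, though not uniformly. For 24 of the 34, both knockout values lay above both wild-type values, as they did for 30.7% of all tested genes. For 3 genes (Ebf1, Islr and Osr1) both lay below, against 32.1% of all genes, and for 7 the groups overlapped. The test was limma on log2(value + 1) across the 15058 genes with a mean of at least 10, which all 34 passed. At a limma adjusted p under 0.05, 10 adventitial genes rose, where 9.58% of all tested genes did, and 0 fell, where 6.7% did. By unadjusted p under 0.05, 23 were higher and 1 lower. In either direction, 4898 of the 15058 tested genes were under this mark, and their split by direction is not given here. The size of a change is given as the log2 difference, which is the log2 fold change of the knockout over the wild type on the log2(value + 1) scale. Its median over the 34 genes was 1.26, beside -0.02 over all tested genes. The genes that rose were Thy1, Pdpn, Ly6a, Ly6c1, Cd248, Svep1, Fndc1, Pcolce, Cygb and Medag.

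**Figure D1:**
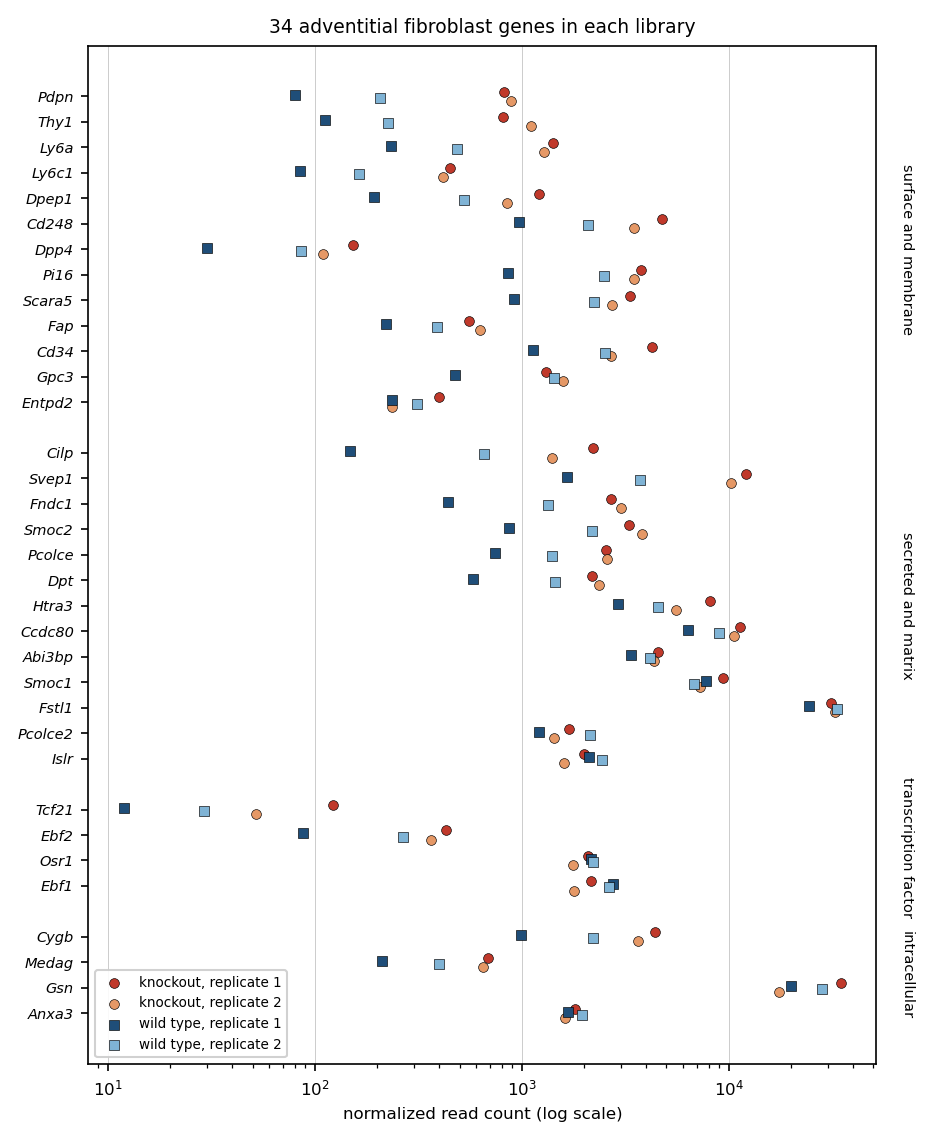
Normalized read count (log axis) of each of the 34 adventitial genes in each library, grouped by the kind of protein and sorted by log2 difference within a group. Circles are knockout and squares wild-type libraries, set slightly apart vertically so that equal values can be seen. In most rows the dark square of wild-type replicate 1 stands leftmost, followed by wild-type replicate 2 and the 2 knockout circles.

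The median difference depended on the libraries, and the calls on the scaling. Without wild-type replicate 1 the median log2 difference of the 34 genes fell to 0.57. It was 1.13 without knockout replicate 1, 1.26 without knockout replicate 2 and 1.75 without wild-type replicate 2. Each of these fits leaves 1 library in a group, so their calls are not compared. After rescaling to the same total 16 of the 34 rose, where 1836 of 15036 tested genes did. After quantile normalization 17 rose, where 1516 of 15058 did. The same 10 were among them in each case. In bulk RNA, more cells of a type and more RNA per cell cannot be told apart.

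The promoters of the adventitial genes are shown first, since TEAD factors, the DNA-binding partners of YAP and TAZ, recognise the letters GGAATG. RefSeq sequences (GRCm38.p6) were matched by symbol for 21 of the 34 genes, with 26 start sites. The 250 bases before each start were searched on both strands. Of the genes that rose, 6 were matched, and Thy1, Ly6a, Cd248 and Cygb were not searched. GGAATG was found before 4 of the 26 starts (15.4%), beside 12.6% of all 32851 promoters of the same length. TATAAA was found before 4 (15.4%, beside 12.4%) and GGGCGG, the GC box, before 9 (34.6%, beside 32.7%). These shares were near those of all promoters. The 4 promoters with GGAATG belong to genes of unlike behaviour: Svep1 rose, Dpep1 and Dpp4 had knockout values above the wild-type values without passing the test, and Entpd2 overlapped between the groups. They are printed with that of Pdpn, the gene with the highest log2 difference of the 34, which holds none of the 3 motifs. Each runs 5′ to 3′ on the gene's strand and ends at the base before the start, with the matches to the 3 motifs in capitals (on the other strand GGAATG reads CATTCC, the TATA box TTTATA and the GC box CCGCCC).
Svep1, chr4:58206597-58206846, minus strand: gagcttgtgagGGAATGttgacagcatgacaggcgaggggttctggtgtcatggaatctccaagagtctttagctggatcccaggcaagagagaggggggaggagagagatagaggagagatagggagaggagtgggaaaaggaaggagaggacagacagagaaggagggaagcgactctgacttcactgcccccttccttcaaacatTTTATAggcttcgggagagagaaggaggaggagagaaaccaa
Dpep1, chr8:123185985-123186234, plus strand: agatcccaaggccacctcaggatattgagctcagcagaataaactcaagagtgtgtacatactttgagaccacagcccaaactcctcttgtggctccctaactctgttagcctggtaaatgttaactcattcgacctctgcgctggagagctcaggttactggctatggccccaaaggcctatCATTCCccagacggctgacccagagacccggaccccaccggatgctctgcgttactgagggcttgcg
Dpp4, chr2:62412232-62412481, minus strand: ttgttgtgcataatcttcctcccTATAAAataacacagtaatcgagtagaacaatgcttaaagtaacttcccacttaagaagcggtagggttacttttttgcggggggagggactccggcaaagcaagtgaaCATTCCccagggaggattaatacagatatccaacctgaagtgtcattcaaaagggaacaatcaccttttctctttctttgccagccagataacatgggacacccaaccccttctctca
Entpd2, chr2:25395624-25395873, plus strand: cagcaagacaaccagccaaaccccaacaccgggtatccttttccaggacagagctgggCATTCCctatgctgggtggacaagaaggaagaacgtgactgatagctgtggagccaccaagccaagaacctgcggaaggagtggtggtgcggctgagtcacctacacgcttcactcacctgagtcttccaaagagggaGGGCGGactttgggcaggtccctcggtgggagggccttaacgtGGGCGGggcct
Pdpn, chr4:143299565-143299814, minus strand: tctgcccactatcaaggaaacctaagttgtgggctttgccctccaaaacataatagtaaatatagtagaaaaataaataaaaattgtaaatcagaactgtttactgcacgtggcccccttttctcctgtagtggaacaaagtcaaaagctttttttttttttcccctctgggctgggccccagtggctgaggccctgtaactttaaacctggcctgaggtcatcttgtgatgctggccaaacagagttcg
The GGAATG match lay 239 bases before the start of Svep1, and the matches to its reverse complement began 67, 118 and 192 bases before the starts of Dpep1, Dpp4 and Entpd2. Svep1 also holds TTTATA 42 bases before its start. A match of letters is a description of the sequence and was not tested for binding.

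Among the 13 surface and membrane proteins 5 rose and 0 fell, with a median log2 difference of 1.33, which was 0.60 without wild-type replicate 1. Pdpn encodes podoplanin, a mucin-like glycoprotein of fibroblasts, lymphatic endothelium and mesothelium (chromosome 4, 143267431 to 143299564, minus strand, GRCm38). It was at 816 and 890 in the knockout, with 80 and 206 in the wild type. Both knockout values were thus well above both wild-type values, 5.97-fold on the means (log2 difference 2.72, standard error 0.42, adjusted p = 0.0145 by limma, n = 2 per group). Without wild-type replicate 1 its log2 difference was 2.04.

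Thy1 encodes CD90, a glycolipid-anchored protein used to sort fibroblasts (chromosome 9, 44043384 to 44048579). Its values were 812 and 1109 in the knockout, with 112 and 225 in the wild type. This 5.70-fold rise had the smallest p among the 34 genes (log2 difference 2.57, standard error 0.34, adjusted p = 0.0111 by limma), and was 2.07 on the log2 scale without wild-type replicate 1. Cd248 encodes endosialin, a collagen-binding receptor of stromal cells and pericytes. It was at 4743 and 3483 versus 967 and 2094, a log2 difference of 1.51 (standard error 0.36, adjusted p = 0.0408 by limma) and of 0.96 without wild-type replicate 1.

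Ly6a and Ly6c1 encode small glycolipid-anchored proteins of the Ly6 family and lie 46.0 kilobases apart on chromosome 15, with no annotated protein-coding gene between them in GENCODE M21. Ly6a (74994877 to 74998031), whose product Sca-1 is the usual marker of adventitial progenitor cells in the mouse, was at 1413 and 1280 in the knockout, with 232 and 485 in the wild type. Its rise was 3.76-fold (log2 difference 2.00, standard error 0.33, adjusted p = 0.0169 by limma; 1.47 without wild-type replicate 1). Ly6c1 was at 449 and 416 versus 85 and 163, a 3.49-fold rise (log2 difference 1.87, standard error 0.31, adjusted p = 0.0177 by limma; 1.40 without wild-type replicate 1). The pair had similar fold changes. Reads of this family can fit several members: the close paralog Ly6c2 was listed at 0 to 3 in every library, and another member of the cluster, Ly6e, looked up after the values were seen, was at 1165 and 1376 versus 291 and 472.

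Of the 4 genes named above as markers of the progenitor population, Ly6a rose, while Pi16, Cd34 and Dpp4 did not pass the test; all 4 had the same order over the libraries. Pi16, a secreted or membrane-anchored peptidase inhibitor (chromosome 17, 29317680 to 29330593), was at 3784 and 3498 in the knockout, with 861 and 2481 in the wild type. The 2.18-fold difference of the means (log2 difference 1.31, 95% interval 0.20 to 2.43, adjusted p = 0.104 by limma) stood beside a 2.88-fold difference between the 2 wild-type libraries. Cd34, a sialomucin of progenitor and endothelial cells, was at 4245 and 2697 versus 1134 and 2536 (log2 difference 1.00, 95% interval 0.02 to 1.97, adjusted p = 0.146 by limma). Its lower knockout value was 1.06-fold above the higher wild-type value. Without wild-type replicate 1 the log2 differences were 0.55 for Pi16 and 0.42 for Cd34.

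Dpp4 and Fap encode related membrane serine proteases and are near neighbours on chromosome 2, 88.7 kilobases apart with Gcg between them. Dpp4 (CD26) was scarce, at 153 and 110 in the knockout, with 30 and 86 in the wild type (log2 difference 1.33, standard error 0.51, adjusted p = 0.136 by limma). Fap, the fibroblast activation protein, was at 555 and 629 versus 221 and 389 (1.01, standard error 0.27, adjusted p = 0.0571 by limma). Both had knockout values above the wild-type values and neither passed. Without wild-type replicate 1 their log2 differences were 0.59 and 0.60.

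Of the other surface proteins, Dpep1, a membrane dipeptidase, was at 1217 and 844 versus 194 and 523, with a log2 difference of 1.67 (adjusted p = 0.0585 by limma). The ferritin receptor gene Scara5 was at 3317 and 2724 versus 920 and 2241, with one of 1.07 (adjusted p = 0.123 by limma). In neither did the groups overlap. They did overlap for Gpc3, a heparan sulfate proteoglycan at 1308 and 1585 versus 476 and 1438, and for the ectonucleotidase gene Entpd2 at 400 and 236 versus 236 and 311. Without wild-type replicate 1 the log2 differences were 0.95 for Dpep1 and 0.42 for Scara5, and that of Gpc3 went from 0.80 to 0.0019. The values of Entpd2 are uncertain, since 28.8% of its annotated exon length overlaps Npdc1 on the same strand.

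**Figure D2:**
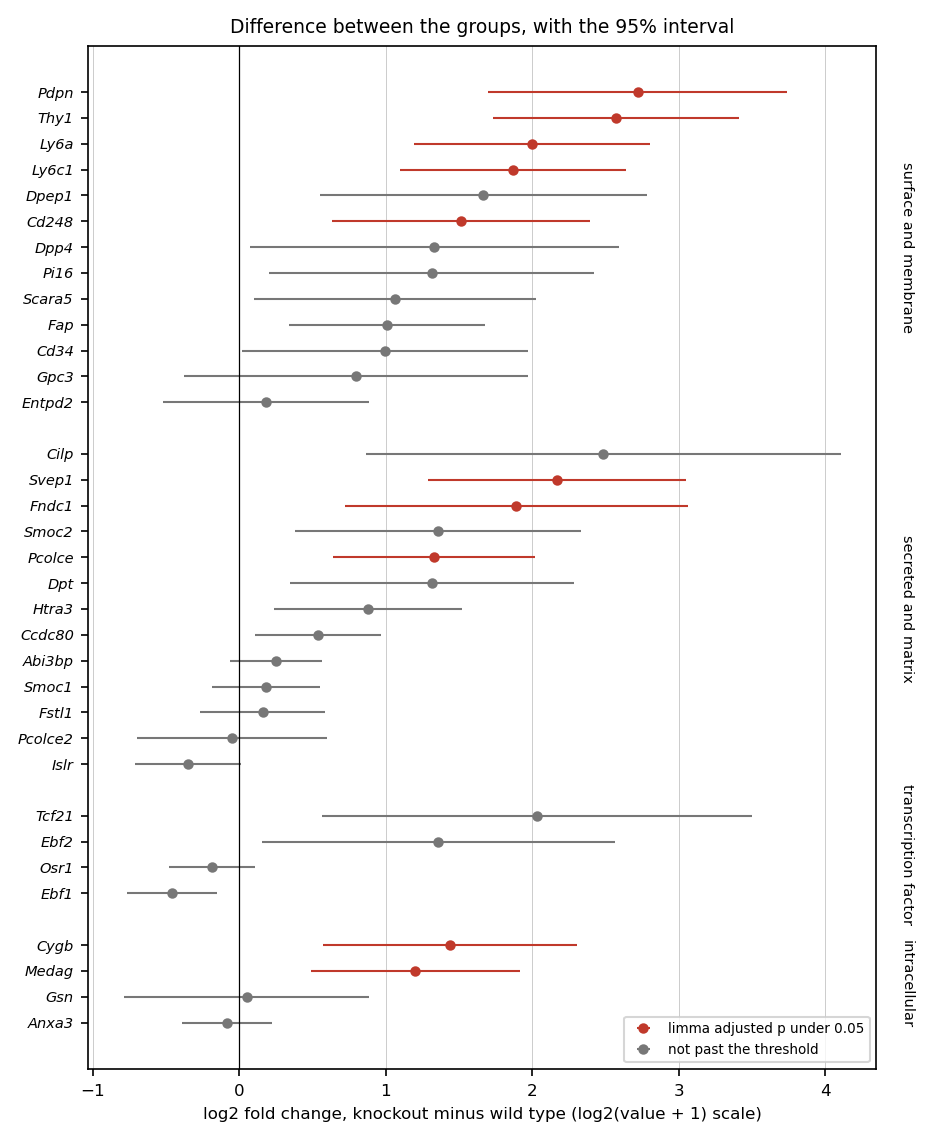
Log2 fold change of each adventitial gene, knockout minus wild type, on the log2(value + 1) scale, with limma's 95% interval as bars. The 10 genes in red had an adjusted p under 0.05 and log2 differences from 1.20 to 2.72; 5 of the 34 estimates lie below 0, and 4 of those 5 intervals include 0.

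Among the 13 secreted and matrix proteins, 3 rose, with a median log2 difference of 0.88, which was 0.56 without wild-type replicate 1. Svep1 encodes a large secreted adhesion protein with complement control and pentraxin domains (chromosome 4, 58042442 to 58206859, minus strand). It was at 12077 and 10304 in the knockout, with 1646 and 3723 in the wild type. The knockout values were 4.17-fold higher on the means (log2 difference 2.17, standard error 0.36, adjusted p = 0.0171 by limma), and the log2 difference was 1.58 without wild-type replicate 1. The annotation gives an opposite-strand gene, Gm26889, over 13.9% of its exon length, and the strand setting of the counting is not given in the sources used here.

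Fndc1, which encodes a protein with fibronectin type III domains, was at 2687 and 3006 versus 438 and 1335, a 3.21-fold rise (log2 difference 1.89, standard error 0.48, adjusted p = 0.0478 by limma). Its log2 difference without wild-type replicate 1 was 1.09. Cilp, a matrix protein first described in cartilage, had a higher estimate but a wider spread. It was at 2212 and 1397 in the knockout, with 148 and 660 in the wild type, and its log2 difference of 2.49 (standard error 0.66) did not pass (adjusted p = 0.0545 by limma). The wild-type values alone differed 4.46-fold, and without replicate 1 the log2 difference was 1.41.

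The 2 procollagen C-proteinase enhancers promote removal of the C-terminal propeptide of fibrillar collagens. Pcolce was at 2563 and 2572 in the knockout, with 743 and 1399 in the wild type, and rose 2.40-fold (log2 difference 1.33, standard error 0.28, adjusted p = 0.0301 by limma; 0.88 without wild-type replicate 1). Pcolce2 was at 1681 and 1432 versus 1206 and 2129, with both knockout values between the wild-type values. Its log2 difference of -0.05 (95% interval -0.70 to 0.60, adjusted p = 0.926 by limma) became 0.04 after rescaling to the same total. The difference between the paralogs was not tested.

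Smoc1 and Smoc2 encode calcium-binding proteins of the SPARC family, and the difference between them was likewise not tested. Smoc2 was at 3291 and 3793 versus 871 and 2176 (log2 difference 1.36, standard error 0.40, adjusted p = 0.0698 by limma) and its groups did not overlap. Its log2 difference without wild-type replicate 1 was 0.70. Smoc1 was at 9332 and 7278 versus 7744 and 6794, with overlapping groups and a log2 difference of 0.18 (95% interval -0.19 to 0.56, adjusted p = 0.455 by limma). Per kilobase of exon, Smoc1 was more abundant than Smoc2 in every library, and in the wild type the mean levels were 2079 and 219.2 normalized counts per kilobase.

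Dermatopontin (Dpt), which binds decorin and collagen, was at 2194 and 2364 versus 579 and 1442, with a log2 difference of 1.32 (standard error 0.39, adjusted p = 0.0734 by limma). The serine protease gene Htra3, at 8101 and 5569 versus 2910 and 4570, had one of 0.88, and Ccdc80, a secreted matrix protein gene at 11344 and 10636 versus 6365 and 8984, one of 0.54. All 3 had knockout values above the wild-type values and missed the threshold, and without wild-type replicate 1 their log2 differences were 0.66, 0.56 and 0.29. The matrix protein gene Abi3bp was at 4530 and 4362 versus 3361 and 4148, a log2 difference of 0.25. Fstl1, a secreted follistatin-like glycoprotein gene, was at 31188 and 32588 versus 24374 and 33349, a log2 difference of 0.16 with an interval of -0.27 to 0.59. Islr, which encodes a leucine-rich repeat protein of mesenchymal cells, was at 1999 and 1591 versus 2111 and 2442, so that the groups did not overlap and the knockout was the lower (log2 difference -0.35, adjusted p = 0.167 by limma).

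The 4 transcription factor genes divided into 2 that were higher and 2 that were lower in the knockout, and none passed the test. Ebf1 and Ebf2 encode related helix-loop-helix factors of mesenchymal and adipocyte precursor cells. Ebf2 was at 431 and 364 in the knockout, with 88 and 268 in the wild type (log2 difference 1.36, standard error 0.49, adjusted p = 0.117 by limma). Ebf1 (chromosome 11, 44617317 to 45008091) was at 2167 and 1789 versus 2766 and 2648 (-0.46, standard error 0.13, adjusted p = 0.0581 by limma), the lowest of the 34 estimates. The log2 difference of Ebf1 ran from -0.60 to -0.32 when any single library was left out, and that of Ebf2 was 0.56 without wild-type replicate 1.

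Tcf21, a factor needed for the formation of cardiac fibroblasts, had low counts, at 122 and 52 versus 12 and 29. Its log2 difference of 2.03 (standard error 0.60, adjusted p = 0.0708 by limma) rested on few reads, and was 1.43 without wild-type replicate 1. Osr1, a zinc finger factor of connective tissue progenitors, was at 2087 and 1759 versus 2153 and 2203, a log2 difference of -0.18 (95% interval -0.48 to 0.11). Ebf1 and Osr1 were also the 2 of the 34 genes in which the wild-type libraries were closest to each other, with ratios of replicate 2 to replicate 1 of 0.957 and 1.02, respectively.

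Of the 4 intracellular proteins, 2 rose. Cygb encodes cytoglobin, a haem protein of fibroblasts, and was at 4412 and 3641 in the knockout, with 994 and 2197 in the wild type (log2 difference 1.44, standard error 0.35, adjusted p = 0.0446 by limma; 0.87 without wild-type replicate 1). Medag, named for a role in adipogenesis, was at 689 and 646 versus 211 and 396 (1.20, standard error 0.29, adjusted p = 0.0431 by limma; 0.75 without wild-type replicate 1). Its reads may be shared with Gm20488, which overlaps 36.7% of its exon length on the same strand. The actin-severing protein gelsolin (Gsn) was at 34674 and 17397 versus 19903 and 28197, so that the knockout libraries alone differed 1.99-fold and enclosed the wild-type values (log2 difference 0.05, 95% interval -0.78 to 0.89). The annexin gene Anxa3, at 1805 and 1609 versus 1668 and 1949, had a log2 difference of -0.08, with an interval of -0.39 to 0.23, and of 0.00225 after rescaling to the same total.

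The levels of these genes, compared per kilobase of exon, spanned a wide range. In the wild type Gsn was the highest, with a mean of 7618 normalized counts per kilobase, and Fstl1 followed at 5873. Gsn was above Fstl1 in both wild-type libraries (6304 and 8932 against 4960 and 6787), though their ranges overlapped. The order of Smoc1 (2215 and 1943) and Ccdc80 (1483 and 2093) differed between the libraries. Osr1 (1042 and 1066), next in order, lay below Ccdc80 in both libraries. At the other end stood Ebf2 (12.7 and 38.7), Dpp4 (4.75 and 13.6) and Tcf21 (5.11 and 12.3). Ebf2 was above Dpp4 and Tcf21 in both libraries, while the order of Dpp4 and Tcf21 differed between them. In the knockout Gsn (10983 and 5511) and Fstl1 (6347 and 6632) again led, and their order differed between the libraries. Svep1 moved from place 22 of 34 by mean level in the wild type to place 11 in the knockout, and Ebf1 from place 17 to 28.

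Other fibroblast genes moved in the same direction. Of 24 general fibroblast genes, 8 rose and 1 fell, with a median log2 difference of 0.97, and for 19 both knockout values lay above both wild-type values. The 3 with the smallest p were the matrix protease gene Mmp3 (4277 and 6068 versus 283 and 594), the fibulin gene Fbln2 (17137 and 13220 versus 2516 and 4477) and the small proteoglycan gene Lum (6716 and 6043 versus 1051 and 1995), with log2 differences of 3.63, 2.16 and 2.14. The gene that fell, named after its values were seen, was Ogn, which encodes osteoglycin (11032 and 6337 versus 27180 and 22611, log2 difference -1.57). Of 12 genes of activated fibroblasts, 8 rose and 0 fell, with a median of 1.76. They included Wisp1, Runx1 and Adam12, at 863 and 1229, 665 and 1339, and 403 and 1057 in the knockout, against 247 and 321, 94 and 141, and 31 and 72 in the wild type. After quantile normalization 14 general fibroblast genes rose, and after rescaling to the same total 12.

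**Figure D3:**
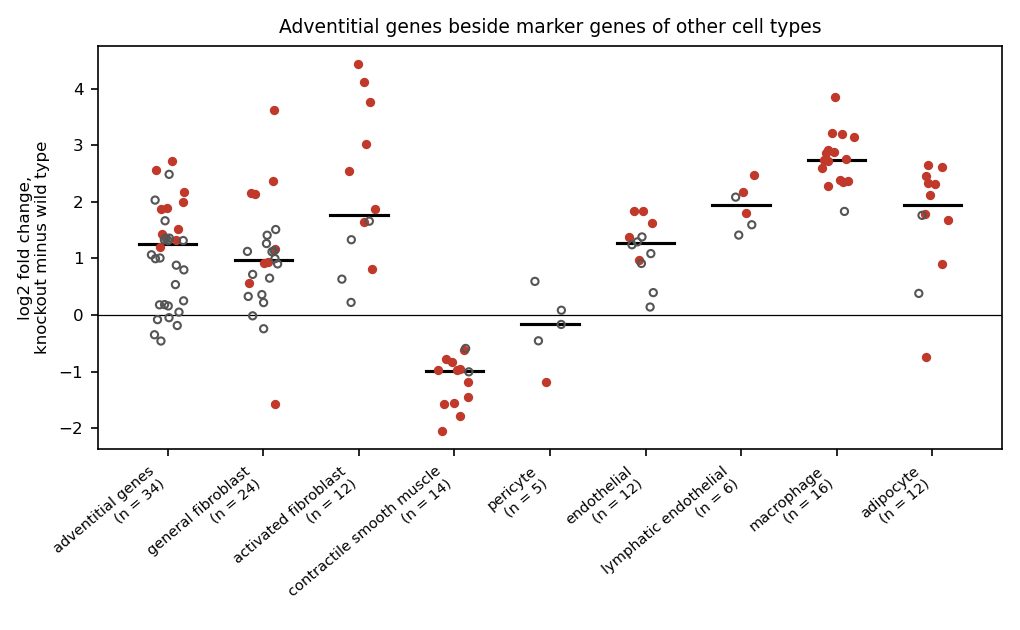
Log2 fold change, knockout minus wild type, of each tested gene of the adventitial set and of marker lists of other cells. Filled red points had a limma adjusted p under 0.05, open points did not, and the bar is the list's median, 1.26 for the adventitial genes, 2.75 for macrophage and -0.99 for contractile smooth muscle genes.

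Markers of several other cells moved with the adventitial genes in the same libraries. Of 16 macrophage markers 15 rose and 0 fell, with a median log2 difference of 2.75, and their summed normalized counts were 20421 and 23835 in the knockout, with 2085 and 5551 in the wild type. C1qc, Adgre1 and Cd14 had the smallest p, with log2 differences of 2.35, 2.87 and 2.61. Of 12 adipocyte markers 9 rose and 1 fell (median 1.95, sums of 20552 and 18765 versus 11074 and 11980). The gene that fell, named after its values were seen, was the lipid droplet gene Plin4 (4436 and 3622 versus 7904 and 5710), which holds the highest wild-type counts of the list. Wild-type replicate 2 was above replicate 1 for 11 of the 12, with a median ratio of 2.89. Of 12 endothelial markers 5 rose and 0 fell (median 1.27, sums of 13262 and 11540 versus 5012 and 7459), led by Pecam1, Emcn and Kdr. Of 6 lymphatic endothelial markers 3 rose (Mmrn1, Lyve1 and Flt4), with sums of 3525 and 2843 versus 408 and 1206. Podoplanin, Thy1, Ly6a, Ly6c1 and Cd34 are also expressed by some of these cells. The part of any of them in the adventitial results was not tested.

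The mesothelium is represented by few reads: Upk1b was at 0 in all 4 libraries, Msln and Upk3b were at 0 in 3 libraries and at 1 in knockout replicate 2, and the 10 markers, of which 2 were tested and 0 called, summed to 132 and 170 in the knockout, with 102 and 127 in the wild type. T cell markers were as scarce. Their 8 genes summed to 64 and 127 versus 16 and 16, with Cd3e at 9 and 25 versus 1 and 3, and of the 2 tested none passed. The contractile smooth muscle list went the other way: 12 of its 14 genes fell, 0 rose and the median was -0.99, and for all 14 the wild-type libraries were both above the knockout libraries. Acta2, Myl9 and Itga8 had log2 differences of -2.05, -1.79 and -1.58. Of 6 pericyte markers 5 were tested, and 1, Notch3, fell (541 and 597 versus 1296 and 1300); the list's median of -0.17 turned to 0.10 after quantile normalization. Without wild-type replicate 1 the median log2 difference was 0.53 for general fibroblast, 0.82 for endothelial and 1.12 for lymphatic endothelial markers. It was 1.43 for adipocyte and 2.12 for macrophage markers, 1.81 for activated fibroblast and -0.96 for contractile genes.

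The libraries can be set in order by the mean log2(value + 1) over the 34 adventitial genes. It was 9.39 and 10.33 in wild-type replicates 1 and 2 and 11.06 and 10.82 in knockout replicates 1 and 2. Wild-type replicate 2 thus lay 0.94 above replicate 1, and the knockout libraries 1.66 and 1.43 above it. The general fibroblast genes gave 0.83 for wild-type replicate 2, and 1.48 and 1.33 for the knockout libraries. Macrophage markers gave 1.27, and 3.08 and 3.71, and contractile genes -0.14, and -1.05 and -1.42. Between the knockout libraries the order was not the same for all lists: adventitial genes were higher in replicate 1, while macrophage and activated fibroblast genes were higher in replicate 2.

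**Figure D4:**
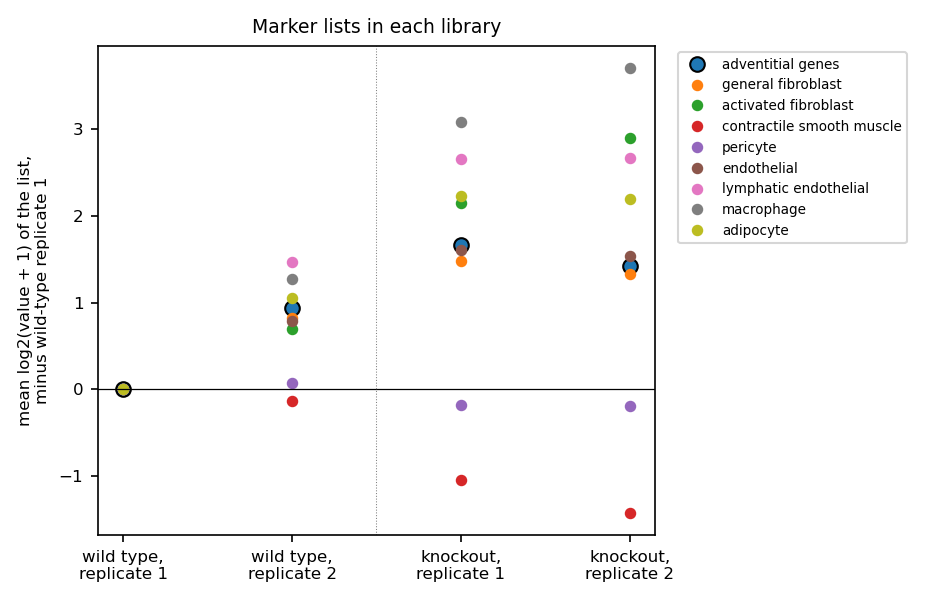
Mean log2(value + 1) of the tested genes of the adventitial set and 8 marker lists in each library, minus the value of wild-type replicate 1, which is 0 by construction. The adventitial genes (outlined) lie at 0.94 in wild-type replicate 2 and at 1.66 and 1.43 in the knockout libraries, close to the general fibroblast and endothelial lists; the contractile genes lie below 0 in the other 3 libraries.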

How the data were processed

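A single table, which its name describes as normalized, was deposited with a column for each library. The deposited values are scores, that is read counts divided by a size factor and rounded to whole numbers: whole numbers are skipped or doubled at a fixed spacing, which gave the size factors (0.887, 0.890, 1.10 and 1.16) and the depth estimates. No count model was used. Per the submitters' processing notes, the tools were DESeq2 1.14.1, featureCounts 1.5.1 from Subread, STAR 2.5.2b and FastQC, and the build mm10/GRCm38, with no roles stated. For the annotation release and strand setting, nothing is given in the sources used here. Per the labels' protocols, ribosomal RNA was removed before stranded library preparation from total RNA.

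In R 4.3.3, limma 3.58.1 was run on log2(value + 1) for genes with a mean of at least 10, with group as the single term and an intensity trend in eBayes (3.96 prior and 2 residual degrees of freedom), two-sided with Benjamini-Hochberg adjustment over 15058 genes at a threshold of 0.05. Log2 fold changes understate the change of low genes. Folds are ratios of group means. The fit was run on simulated data with the same dispersion for every gene and no shift between the replicates of a group. The wild-type libraries here did differ in this way, so that run does not vouch for these calls. Exon lengths, positions and overlaps come from GENCODE M21 (GRCm38), matched by identifier, and promoters from RefSeq. A second row named Ebf1, a pseudogene at 0 in all libraries, was left out. Protein sequences were not used here. The result of 1 marker list is not reported here. The 34 genes and the marker lists were chosen with earlier results of these data known. Full statistics are given for the 12 adventitial genes with the smallest p, Pi16, Dpp4, Fap, Cd34, Ly6a, Thy1, Pdpn and the paralog pairs, and of each marker list at most 3 genes, those with the smallest p, are named as results. Alternatives changed the scaling, pseudocount, filter, trend and replicate block, and left out each library.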

Additional observations from a re-analysis of the deposited data

How the results depend on the processing

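With 2 libraries per group the calls were fragile. They could not be checked by leaving out a library, since 1 would remain in a group. Against 1443 higher and 1009 lower genes over the table and 10 higher and 0 lower adventitial genes, limma called 0 genes of any kind without a filter on low values (5472 at an unadjusted p under 0.05) and 0 without the intensity trend (4274). The count of adventitial genes called higher was 16 with the same total in every library (1836 over the table) and 17 after quantile normalization (1516 over the table). With the replicate number as a block it was 16, and 1, Ebf1, was lower (1823 higher and 1213 lower over the table). Whether same-numbered libraries share more than a number is not given in the sources used here. Their deviations correlated at 0.118 over 15058 genes. Leaving out each library in turn gave from 0 to 587 higher and 0 to 153 lower genes over the table, and from 0 to 19 adventitial genes higher. The cause of these differences was not tested.

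Other pseudocounts and a mean of at least 50 kept the same 10 adventitial genes. Of 272 single-gene values recomputed with all libraries, 230 kept their direction and side of the threshold and 2 reversed: with the same total, Pcolce2 was 0.037 and Anxa3 0.00225. With 1 library left out, 9 of 136 reversed. The log2 fold change then ran from -0.45 to 0.55 for Gsn, from -0.46 to 0.36 for Pcolce2, from -0.19 to 0.031 for Anxa3, from -0.20 to 0.56 for Entpd2 and from -0.065 to 0.39 for Fstl1. Tcf21 and Dpp4 had low counts, and the part of depth in their spread was not tested.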
